A study of Mus musculus with 6 samples.

Results

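The 10 genes described here encode regulators of G-protein signaling (RGS) and were taken by gene symbol, with earlier results of these data known, as the rows named Rgs2, Rgs4, Rgs5, Rgs6, Rgs7, Rgs8, Rgs10, Rgs12, Rgs14 and Rgs16 among the 24972 genes of a table of mouse cortex at postnatal day 7 (P7). All 10 were present in the table and all 10 passed the filter on low values. RNA came from dissected cortices in 3 wildtype and 3 Zmiz1-KO libraries. Per the labels, wildtype cortices were Zmiz1f/f and Zmiz1-KO cortices Zmiz1f/f;Emx1Cre, so both genotypes carried the floxed Zmiz1 allele and differed in Cre. The labels give no strain, sex, litter or batch, and do not say whether a library is a single animal, so p-values measure the spread between these libraries. Emx1-driven Cre acts in the progenitors of cortical excitatory neurons and glia of the same lineage, while interneurons, microglia and vascular cells of a dissected cortex arise elsewhere and would keep the gene. A treatment field of the labels also mentions isolated progenitors, but the tissue field and the methods give whole cortex, and neuronal, glial, vascular and microglial markers were all detected.

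Zmiz1 had 7461 to 8119 normalized counts in wildtype and 9660 to 9944 in the other group, so the gene named as deleted was not lower but higher there (log2 fold change 0.32 ± 0.040, SE; adjusted p = 0.00125, limma), and the second group is called KO-labelled throughout. Values per gene do not separate transcripts with and without the floxed part. Emx1, the gene whose promoter drives Cre, had 688 to 818 normalized counts in wildtype and 473 to 583 in the second group (adjusted p = 0.0150, limma). Xist and Ddx3y placed wildtype replicate 3 and KO-labelled replicate 2 as female and the other 4 libraries as male. Wildtype replicate 1 stood apart for the genes described here. It held the lowest value of 7 of the 10 RGS genes, of 10 of 10 markers of striatal projection neurons and of 10 of 11 interneuron markers. It was also lowest for 5 of 7 markers of hippocampal area CA2, 5 of 8 layer 6 markers and 8 of 15 early genes of neuronal activity. Other lists went the other way, with the highest value there in 6 of 8 cortical excitatory neuron markers and 5 of 10 mural markers. The share over all tested genes was not counted. Log2 fold changes without this library are also given for Rgs2, Rgs4, Rgs5, Rgs7, Rgs8, Rgs10 and Rgs14. Marker sums, and log2 fold changes of genes outside the 10, are given only with all libraries. In bulk RNA, fewer cells of a type and less RNA per cell cannot be told apart.

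RGS proteins switch off signals from G-protein-coupled receptors. A receptor loads the alpha subunit of a heterotrimeric G protein with GTP, and the RGS domain speeds the hydrolysis of that GTP, so that alpha rejoins beta-gamma and the signal ends. In cortex the family sets how long glutamate, GABA, monoamine, acetylcholine and adenosine receptors act on potassium channels, phospholipase C and adenylyl cyclase. The genes fall into the small R4 proteins (Rgs2, Rgs4, Rgs5, Rgs8 and Rgs16), the R7 proteins, which are stable only when bound to the beta subunit Gnb5 (Rgs6 and Rgs7), and the R12 proteins (Rgs10, Rgs12 and Rgs14).

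None of the 10 genes was called at an adjusted p of 0.05 (limma, 15800 genes tested), and none by limma-voom. In 4 of them, Rgs2, Rgs8, Rgs12 and Rgs14, every KO-labelled library lay above every wildtype library, and the same 4 had an unadjusted p under 0.05. Over all tested genes, 0.411% were called (0.165% higher and 0.247% lower), 11.0% had an unadjusted p under 0.05 (5.13% with a higher estimate), 16.3% had groups that did not overlap, 8.10% with the KO-labelled group higher and 8.16% with it lower. The limma adjusted p of the 10 genes ran from 0.240 to 0.878. Their log2 fold changes, KO-labelled over wildtype, ran from -0.15 to 0.37 with a median of 0.10, against a median of 0.00 over all tested genes, and 7 of the 10 estimates were higher in KO-labelled libraries, against 49.9% of all tested genes. By subfamily, 4 of 5 R4 genes, 0 of 2 R7 genes and 3 of 3 R12 genes had a higher estimate. The smallest p that the exact permutation test (two-sided) can give at this size is 0.1, which was its value in each of the 4 genes without overlap and 0.4 to 0.6 in the other 6.

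**Figure D1:**
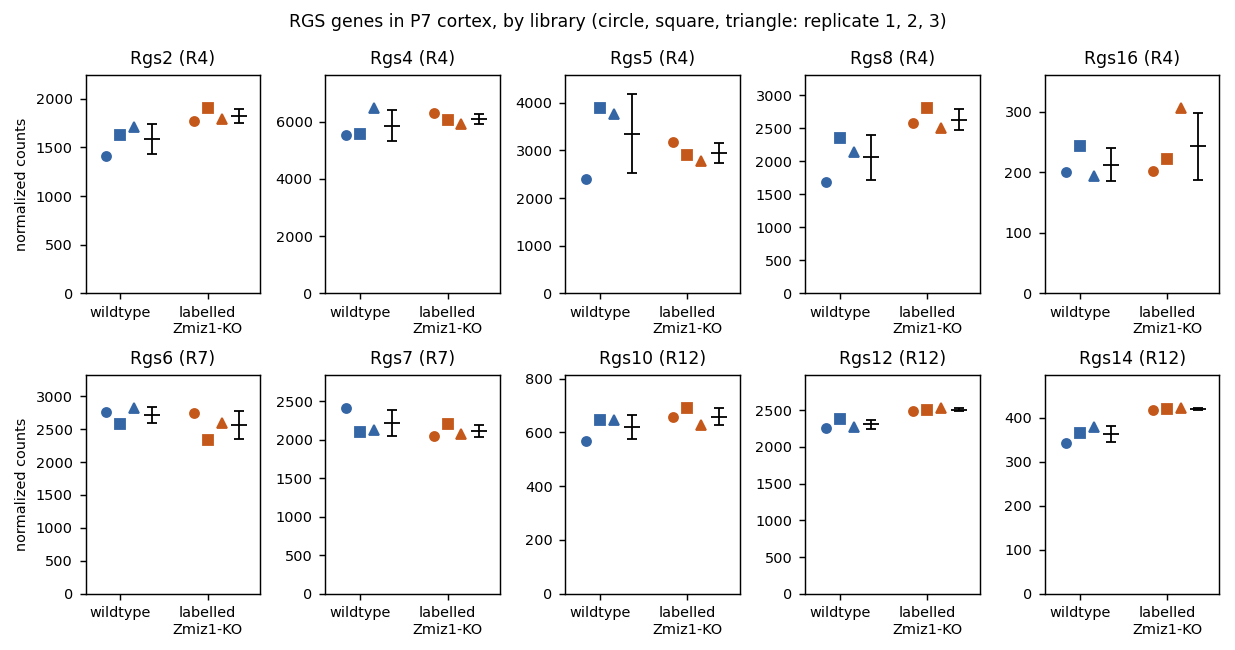
Normalized counts of each RGS gene (vertical axes from 0, one scale per gene) in the 3 wildtype libraries (blue) and the 3 KO-labelled libraries (orange), with the mean and SD of each group as a black bar and its whiskers. Groups do not overlap for Rgs2, Rgs8, Rgs12 and Rgs14, and wildtype replicate 1 (circle) is low for Rgs5 and Rgs8.

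The genes were matched to RefSeq start sites (GRCm38.p6), and 9 of the 10 had at least 1 entry. Shown are the 250 bases before the annotated start of Rgs2, Rgs8 and Rgs12, the genes with non-overlapping groups that had an entry, each read 5′ to 3′ on the strand of its gene with the start site after its last base. Where a gene had several starts, the one nearest the GENCODE start was taken. Capitals mark matches, searched on both strands. The cyclic AMP response element (CRE) was spelled TGACGTCA and its core, which the whole element contains, TGACG. The AP-1 site was spelled TGANTCA, the E-box of the search was CACGTG, the GC box was written as GGGCGG, and the promoter element of the TATA-binding protein as TATAAA. The remaining one, CCAAT, is named by its letters. The Rgs2 window is chr1:144004150-144004399 on the minus strand, the Rgs8 window chr1:153652787-153653036 on the plus strand and the Rgs12 window chr5:34949198-34949447 on the plus strand.
Rgs2: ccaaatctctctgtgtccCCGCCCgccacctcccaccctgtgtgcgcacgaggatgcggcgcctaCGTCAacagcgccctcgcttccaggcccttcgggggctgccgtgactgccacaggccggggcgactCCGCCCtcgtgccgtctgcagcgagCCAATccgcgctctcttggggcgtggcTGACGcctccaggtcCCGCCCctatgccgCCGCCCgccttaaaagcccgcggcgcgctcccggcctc
Rgs8: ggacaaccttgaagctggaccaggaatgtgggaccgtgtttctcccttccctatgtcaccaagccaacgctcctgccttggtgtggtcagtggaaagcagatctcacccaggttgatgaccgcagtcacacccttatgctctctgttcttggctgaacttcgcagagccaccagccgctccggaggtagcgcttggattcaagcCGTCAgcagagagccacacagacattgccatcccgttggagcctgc
Rgs12: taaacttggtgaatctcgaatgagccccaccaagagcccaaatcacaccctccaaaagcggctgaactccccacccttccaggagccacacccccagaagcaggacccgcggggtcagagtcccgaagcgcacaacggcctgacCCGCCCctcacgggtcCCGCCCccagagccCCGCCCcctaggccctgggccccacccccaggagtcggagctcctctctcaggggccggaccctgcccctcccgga

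The windows had little in common in these letters. Rgs2 held 2 CRE cores, 4 GC boxes and 1 CCAAT box in 72.4% G and C, Rgs8 held 1 CRE core in 57.2% G and C, and Rgs12 held 3 GC boxes in 68.4% G and C. Of 32851 windows of the same length, 17.8% held the CRE core, 32.7% a GC box, 33.8% a CCAAT box, 12.4% a TATA box, 6.75% an AP-1 match, 6.02% an E-box and 1.55% a whole CRE, and the median G and C content was 52.4%. Neither a whole CRE nor an AP-1 or E-box match was found in these 3 windows. A second Rgs12 start, at which the window is chr5:34998828-34999077, held 1 CRE core, 1 AP-1 match and 1 GC box, and the 2 further Rgs8 windows held 1 CCAAT box each. The remaining windows nearest the GENCODE start held 2 CRE cores, 1 TATA box and 1 CCAAT box in Rgs4, 1 CCAAT box in Rgs5, 1 E-box in Rgs7, 2 GC boxes in Rgs10 and, in Rgs16, 2 GC boxes and 1 CCAAT box.

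Rgs2, an R4 protein that acts mainly on Gq alpha subunits and is known as a gene induced by neuronal activity, lies on chromosome 1 of GRCm38 from 143999338 to 144004161. Wildtype replicates 1, 2 and 3 had 1413, 1632 and 1713 normalized counts, and KO-labelled libraries had 1777, 1907 and 1790. The lowest KO-labelled value was thus above the highest wildtype value, by less than the range within wildtype. Means were 1586 ± 155 and 1825 ± 71.4 (SD, n = 3 per group), or a log2 fold change of 0.21 ± 0.066 (SE; adjusted p = 0.240, limma). This is 15.4% higher, with a per-gene 95% interval of 4.68% to 27.2%, and Rgs2 ranked 438 of 15800 genes by unadjusted p. Without wildtype replicate 1, the log2 fold change was 0.13 (adjusted p = 0.524, limma). It was 0.26 without wildtype replicate 3, one of the female libraries.

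Rgs8, an R4 protein that acts on Gi/o alpha subunits and speeds the gating of G-protein-gated potassium channels, had the largest estimate of the 10 genes. It lies on chromosome 1 from 153653025 to 153700323. Its values were 1682, 2348 and 2139 normalized counts across wildtype replicates 1, 2 and 3, and 2579, 2805 and 2503 in KO-labelled libraries. Wildtype replicate 1 was well below the other wildtype libraries. Means were 2056 ± 340 and 2629 ± 157 (SD, n = 3 per group), or a log2 fold change of 0.37 ± 0.13 (SE; adjusted p = 0.418, limma). The per-gene interval of the change ran from 1.94% to 63.0%. With wildtype replicate 1 left out, the SE fell to 0.060 and the log2 fold change to 0.23 (adjusted p = 0.204, limma), and with wildtype replicate 2 left out the change was 0.47 (adjusted p = 0.148, limma). The wildtype coefficient of variation was 16.6%, and only 66 of the 6699 tested genes with a mean of at least 1000 normalized counts (0.985%) had one as large.

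Rgs4, an R4 protein for Gi/o and Gq alpha subunits that is abundant in cortical neurons, lies 45.7 kb from Rgs5 on chromosome 1, from 169741477 to 169747642. It had 5532, 5551 and 6475 normalized counts in wildtype and 6295, 6038 and 5930 in KO-labelled libraries. The highest value was in wildtype replicate 3 and the groups overlapped. Means were 5853 ± 539 and 6087 ± 187 (SD, n = 3 per group), or a log2 fold change of 0.06 ± 0.056 (SE; adjusted p = 0.768, limma), with a per-gene interval of -4.19% to 13.5%. Without wildtype replicate 3 the log2 fold change was 0.14 (adjusted p = 0.297, limma). This was the largest estimate with a library left out, and the smallest was 0.02, without wildtype replicate 1 (adjusted p = 0.944, limma).

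Rgs5, the R4 gene used as a marker of pericytes and vascular smooth muscle, spans 169655501 to 169695813 on chromosome 1 and was the most variable of the 10 genes within wildtype. It had 2394, 3889 and 3772 normalized counts across wildtype replicates 1, 2 and 3, and 3165, 2903 and 2769 in KO-labelled libraries. Wildtype was split, with replicate 1 below every other library and the other wildtype libraries above every other library. Over all libraries the means were 3352 ± 831 and 2946 ± 201 (SD, n = 3 per group), or a log2 fold change of -0.15 ± 0.23 (SE; adjusted p = 0.878, limma) with a per-gene interval of -41.8% to 38.5%. Without wildtype replicate 1, Rgs5 passed the threshold with a log2 fold change of -0.38 ± 0.056 (SE; adjusted p = 0.00989, limma), among 0.190% of tested genes called in that fit. That comparison has 2 wildtype libraries. Rgs5 had a wildtype coefficient of variation of 24.8%, against a median of 3.76% over the 6699 genes of at least 1000 normalized counts, of which 26 (0.388%) varied as much.

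Of 10 other mural markers, 2 were lowest and 5 highest in wildtype replicate 1, where Rgs5 was lowest. Their sum was 8327, 8056 and 8099 normalized counts across wildtype replicates 1, 2 and 3 and 8329 to 8612 in KO-labelled libraries, and none of the 10 was called (1 of 10 had groups without overlap). In wildtype replicate 1, where Rgs5 was 71.4% of the wildtype mean, the mural sum was 102% and the endothelial sum 101% of theirs. Like Rgs5, Vtn (2060, 2177 and 2409 normalized counts in wildtype) and Higd1b (47.7, 81.3 and 69.1) were lowest there. Between the groups, 5 of the 10 markers had a higher and 5 a lower estimate in KO-labelled libraries, from -0.32 for Abcc9 to 0.18 for Vtn on the log2 scale. The part of mural cells in the values of Rgs5 was not tested.

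Rgs16, an R4 protein for Gi/o and Gq alpha subunits, lies 40.0 kb from Rgs8, from 153740349 to 153745468. Its values were 200.5, 244 and 194 normalized counts in wildtype and 202, 221 and 306 in KO-labelled libraries. A single library, KO-labelled replicate 3, was high, and the groups overlapped. Means were 213 ± 27.2 and 243 ± 55.4 (SD, n = 3 per group), or a log2 fold change of 0.18 ± 0.15 (SE; adjusted p = 0.740, limma), which was 0.00 without that library. Rgs16 rests on an estimated 94 to 152 reads per library, and 10.1% of its exonic bases are also exon of Gm28513 on the opposite strand, whose reads a kit without strand marks cannot separate.

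The R7 genes had lower estimates that did not pass the test. Rgs6, on chromosome 12 from 82588292 to 83162056, was measured at 2755, 2586 and 2819 normalized counts in wildtype and 2750, 2329 and 2597 in KO-labelled libraries. Its lowest value was in KO-labelled replicate 2, and the groups overlapped. The log2 fold change was -0.09 ± 0.059 (SE; adjusted p = 0.617, limma; interval -13.9% to 2.38%). Rgs7, on chromosome 1 from 175059087 to 175492500, had 2407, 2103 and 2125 in wildtype and 2051, 2200 and 2075 in KO-labelled libraries, again with overlap. Here wildtype replicate 1 was the highest library, and the log2 fold change of -0.07 ± 0.057 (SE; adjusted p = 0.732, limma) became 0.00 without it.

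The partners of the R7 proteins were measured alongside. Gnb5, the beta subunit that holds them, had 2459, 2475 and 2584 normalized counts in wildtype and 2698, 2713 and 2793 in KO-labelled libraries. Its groups did not overlap, as in 16.3% of all tested genes, and its log2 fold change was 0.13 ± 0.045 (SE; adjusted p = 0.295, limma). Rgs7bp, which anchors R7 proteins at the membrane, had a log2 fold change of -0.06 (adjusted p = 0.791, limma), and Gpr158, an orphan receptor that binds Rgs7, one of -0.05 (adjusted p = 0.873, limma), both with overlapping groups. Rgs9, the striatal R7 gene, had 2265 to 2946 in wildtype and 2609 to 3114 in KO-labelled libraries, a log2 fold change of 0.14 (adjusted p = 0.730, limma).

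The 3 R12 genes all had higher estimates in KO-labelled libraries. Rgs14, a large protein with an RGS domain and a GoLoco motif that is known from hippocampal area CA2, lies on chromosome 13 from 55369732 to 55384687. It had 343, 365 and 379 normalized counts in wildtype and 418, 420 and 422 in KO-labelled libraries. The groups were apart by more than the wildtype range. Means were 362 ± 18.5 and 420 ± 1.68 (SD, n = 3 per group), or a log2 fold change of 0.21 ± 0.089 (SE; adjusted p = 0.380, limma; interval 1.71% to 32.1%). The KO-labelled spread, a coefficient of variation of 0.400%, is below the 6.80% that counting about 209 to 230 reads would give by itself, so it understates the error of that mean. Without wildtype replicate 1 the log2 fold change was 0.17 (adjusted p = 0.625, limma).

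Rgs12, the largest of the proteins and also a carrier of a GoLoco motif, spans 34949445 to 35039644 on chromosome 5. Wildtype replicates had 2263, 2380 and 2278 normalized counts, and KO-labelled libraries 2488, 2501 and 2529. Every KO-labelled library was above wildtype. Means were 2307 ± 64.0 and 2506 ± 20.6 (SD, n = 3 per group), or a log2 fold change of 0.12 ± 0.046 (SE; adjusted p = 0.330, limma; interval 1.62% to 16.2%), and with each library left out in turn it stayed between 0.11 and 0.14. Of its exonic bases, 5.50% are also exon of Gm43791 on the opposite strand. Rgs10, a short protein of neurons and microglia on chromosome 7 from 128373621 to 128418758, had 567, 644 and 648 in wildtype and 659, 690 and 627 in KO-labelled libraries. Its groups overlapped, and the log2 fold change was 0.09 ± 0.079 (SE; adjusted p = 0.743, limma), or 0.03 without wildtype replicate 1. The summed level of 9 microglial markers was 5021 to 5347 in wildtype and 4941 to 5171 in KO-labelled libraries, with no marker called. Of the 9, 6 had a lower and 3 a higher estimate. Groups did not overlap in 2 of them, P2ry12 (log2 fold change -0.33) and C1qb (0.19), against 16.3% of all tested genes.

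**Figure D2:**
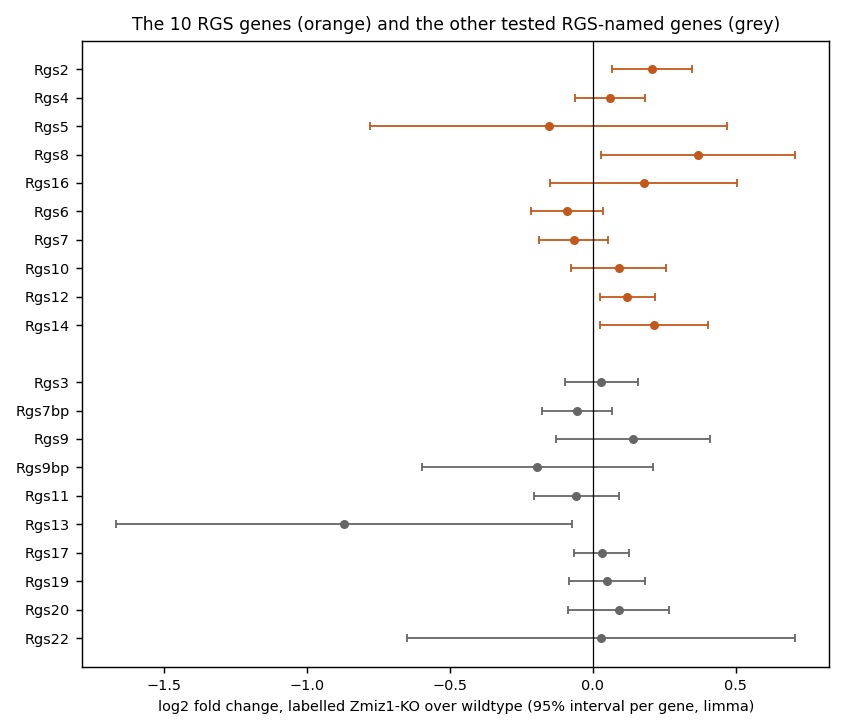
Log2 fold change of KO-labelled libraries over wildtype (horizontal axis) with the per-gene, unadjusted 95% interval from limma, for the 10 RGS genes (orange) and the 10 other tested RGS-named genes (grey). Intervals of Rgs2, Rgs8, Rgs12, Rgs14 and Rgs13 lie off 0, but no gene shown passed the adjusted threshold.

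Marker lists of other cell types and states differed between the groups in both directions, and their counts stand against 0.411% of all tested genes called and 16.3% without overlap (8.10% higher and 8.16% lower in KO-labelled libraries). The sum of 10 markers of striatal projection neurons was 21280, 25852 and 26479 normalized counts across wildtype replicates 1, 2 and 3 and 29374, 31053 and 27939 in KO-labelled libraries. All 10 had a higher estimate there, 6 of 10 had groups without overlap, and 1, Pde10a, was called. For 11 interneuron markers the sum was 18647 to 23015 in wildtype and 24240 to 26037 in KO-labelled libraries, with all 11 estimates higher, 5 without overlap and none called. Rgs8 was at 81.8%, 114% and 104% of the wildtype mean in wildtype replicates 1, 2 and 3 and at 125%, 136% and 122% in KO-labelled libraries. It was lowest in wildtype replicate 1 and highest in KO-labelled replicate 2, as were the sums of both lists. Rgs2 and Rgs10 had the same lowest and highest libraries, so this was not particular to Rgs8. Beside Rgs14, 7 markers of hippocampal area CA2 summed to 14042 to 14834 in wildtype and 15676 to 15926 in KO-labelled libraries, with 3 of 7 not overlapping and none called. Those 3 were Necab2, Ptpn5 and Pcp4, with log2 fold changes of 0.20, 0.11 and 0.17. Ptpn5 and Pcp4, with wildtype means of 6791 and 3701 normalized counts, made up most of the sum. Amigo2, Stard5, Map3k15 and Cacng5 overlapped, at -0.01, -0.005, 0.004 and 0.08. Beside Rgs2, 15 early genes of neuronal activity summed to 8793 to 9099 and 10906 to 11089, with all 15 estimates higher, 13 without overlap and 5 called (Fos, Fosb, Egr1, Arc and Klf4). That sum was 98.6%, 102% and 99.3% of its wildtype mean in wildtype replicates 1, 2 and 3, and 123%, 124% and 122% in KO-labelled libraries. Rgs2 was at 89.1%, 103% and 108%, and at 112%, 120% and 113%. Other lists had mostly lower estimates in KO-labelled libraries. Of 8 oligodendrocyte lineage markers 7 were lower, 3 of them without overlap, Olig1 was called (log2 fold change -0.32, adjusted p = 0.00173, limma), and the sum was 17597 to 20086 in wildtype and 16267 to 17231 in KO-labelled libraries. Of 8 astrocyte markers 6 were lower, 3 of them without overlap, and Aqp4 was called (-0.29, adjusted p = 0.00499, limma), with overlapping sums of 63981 to 68637 and 58245 to 66183. Gfap was higher without overlap (0.05). Of 8 cortical excitatory neuron markers 7 were lower, 2 of them without overlap, with sums of 41274 to 45846 and 41493 to 43190 that overlapped. The called marker was Emx1, the gene whose promoter drives Cre, which per the labels only the KO-labelled genotype carries. Among those counted as lower, Slc17a7 was at -5.46e-06, and Bcl11b was higher without overlap (0.15). Of 8 layer 6 markers 5 were higher and 3 lower, and Cplx3 was called lower (-0.54, adjusted p = 0.0269, limma). Foxp2 (0.34) and Nxph4 (0.32) were higher without overlap. No marker of these lists was at 0. Their part in the values of Rgs2, Rgs8, Rgs12 and Rgs14 was not tested.

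**Figure D3:**
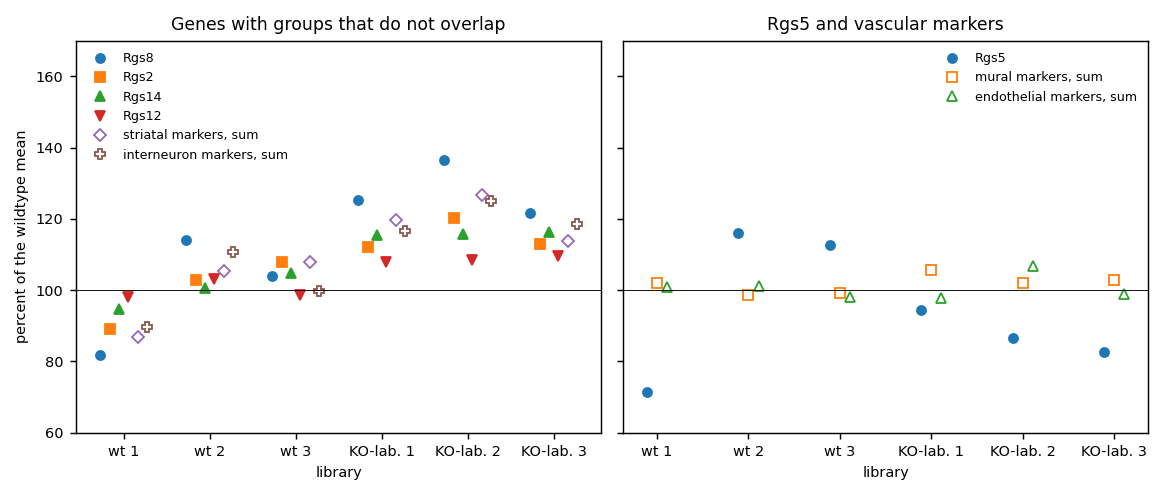
Level in each of the 6 libraries as a percent of the wildtype mean (vertical axis from 60), for the 4 RGS genes whose groups do not overlap with the summed striatal and interneuron markers (left) and for Rgs5 with summed mural and endothelial markers (right). In wildtype replicate 1, Rgs8 is at 81.8% and the striatal sum at 86.7%, while Rgs5 is at 71.4% with the mural sum at 102%.

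Levels of the genes were compared per kilobase of exon (GENCODE M21, GRCm38). Rgs4 was the most abundant of the 10, with 1889 ± 174 normalized counts per exonic kb in wildtype and 1965 ± 60.5 in KO-labelled libraries (SD, n = 3 per group), 2.56 times the wildtype level of Rgs5. Rgs5 followed with 737 ± 183, and Rgs2 with 437 ± 42.8 in wildtype. Below them came Rgs7 (367 ± 28.2), Rgs10 (362 ± 26.6), Rgs12 (272 ± 7.54), Rgs6 (271 ± 12.0), Rgs8 (213 ± 35.3), Rgs16 (91.0 ± 11.6) and Rgs14 (85.5 ± 4.36), each as normalized counts per exonic kb in wildtype (SD, n = 3). In wildtype, the libraries of Rgs2 and Rgs7, Rgs7 and Rgs10, Rgs12 and Rgs6, and Rgs16 and Rgs14 overlapped, so the order of these neighbors is not clear there. In KO-labelled libraries, Rgs2 (490 to 526) lay above Rgs7 (341 to 365) and Rgs12 (293 to 298) above Rgs6 (232 to 274) without overlap. In KO-labelled libraries, Rgs8 (273 ± 16.3) stood above Rgs6 (255 ± 21.3), with overlap. Measured per kilobase of the longest coding transcript instead, Rgs4 stayed first, Rgs8 eighth, and Rgs14 and Rgs16 last, while Rgs7 moved from the fourth place to the second.

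**Figure D4:**
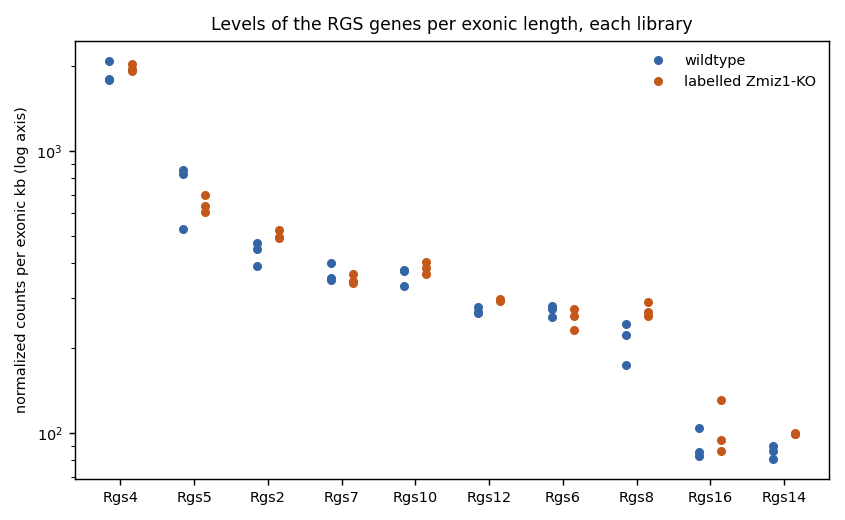
Normalized counts per exonic kb on a log axis for the 10 genes, ordered by the wildtype mean, with 1 point per library in wildtype (blue) and KO-labelled (orange). Rgs4 stands apart at the top and Rgs16 and Rgs14 at the bottom, with the other 7 genes in between.

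Among the other RGS-named genes there was no call either. Of 13 such genes, 10 were tested and none was called by limma (1 had an unadjusted p under 0.05), with a median log2 fold change of 0.03. The exception in size was Rgs13, the R4 gene next to Rgs2 at a distance of 134 kb, which had 26.1, 25.5 and 26.4 normalized counts in wildtype and 13.8, 18.9 and 9.91 in KO-labelled libraries. Its groups did not overlap, in the direction opposite to Rgs2, with a log2 fold change of -0.87 ± 0.38 (SE; adjusted p = 0.400, limma), but it rests on an estimated 12 to 13 reads in wildtype and 5 to 10 in the other group. Rgs3 (0.03), Rgs17 (0.03), Rgs19 (0.05) and Rgs20 (0.09) differed by log2 fold changes within their SEs or close to them, and Rgs11 by -0.06. Rgs21 was listed at 0 in all libraries, and Rgs1 and Rgs18 had at most 3 estimated reads in any library.

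A wider list of the G-protein pathway held G proteins, receptors, effectors, modulators, receptor kinases and arrestins, most of them not direct targets of RGS proteins. Of its 109 tested genes 1 was called, P2ry1, against 0.411% of all tested genes, and their median log2 fold change was 0.00. P2ry1, a Gq-coupled receptor for ADP, had 132, 138 and 123 normalized counts in wildtype and 199, 220 and 214 in KO-labelled libraries. It rose by a log2 fold change of 0.68 ± 0.13 (SE; adjusted p = 0.0307, limma), with every KO-labelled library above wildtype. With 1 library left out at a time, it passed the threshold only without wildtype replicate 2. None of the 14 alpha subunits tested was called by limma (2 had an unadjusted p under 0.05), and 3 of the 14 had groups that did not overlap, against 16.3% of all tested genes. These were Gnai3, Gnai1 and Gnai2, with log2 fold changes of -0.11, -0.06 and 0.05 (adjusted p = 0.383, 0.616 and 0.673, limma). Of 13 beta and gamma subunits none was called (2 under an unadjusted 0.05). Gng7, a gamma subunit rich in striatum, had 9424, 10572 and 11039 in wildtype and 12326, 13066 and 11499 in KO-labelled libraries, a log2 fold change of 0.25 (adjusted p = 0.185, limma), with wildtype replicate 1 again the lowest.

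Of 15 anchors, modulators of alpha subunits, receptor kinases and arrestins none was called (2 under an unadjusted 0.05). Gpsm3, a GoLoco protein, had 45.4, 46.2 and 35.2 normalized counts in wildtype and 79.2, 66.3 and 83.9 in KO-labelled libraries, a log2 fold change of 0.84 (adjusted p = 0.154, limma). Among 21 effectors none was called (3 under an unadjusted 0.05), and the non-overlapping genes with the largest changes were Plcb2 (0.34), Adcy6 (-0.16) and Adcy5 (0.13). Of 46 receptors tested, 13 had groups that did not overlap, 9 higher and 4 lower in KO-labelled libraries, against 16.3% of all tested genes without overlap. Drd2, the D2 dopamine receptor and a striatal marker, had a log2 fold change of 0.50 (adjusted p = 0.216, limma), and Chrm2, a muscarinic receptor, one of -0.34 (adjusted p = 0.528, limma).

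**Figure D5:**
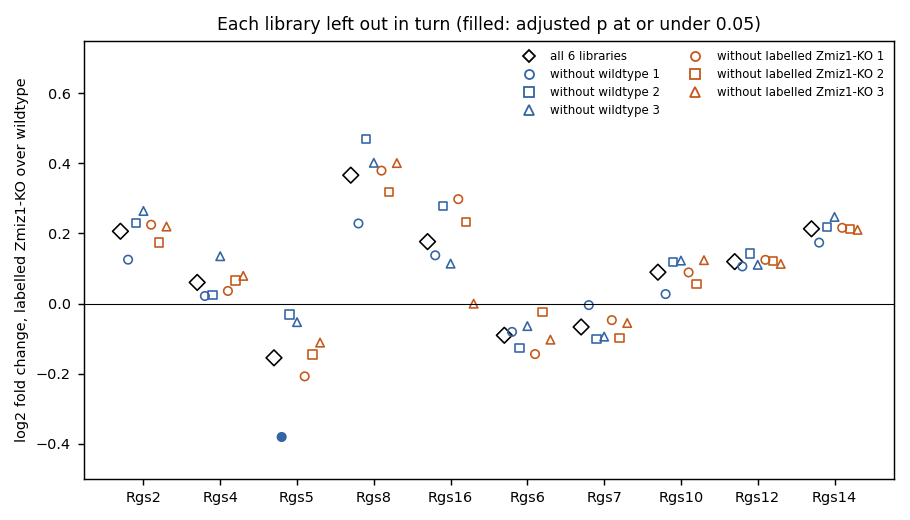
Log2 fold change of each RGS gene with all 6 libraries (black diamonds) and with each library left out in turn (blue, a wildtype library; orange, a KO-labelled library). The single filled point, Rgs5 without wildtype replicate 1 at -0.38, is the only one with a limma adjusted p at or under 0.05.

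Leaving out single libraries moved the genes unequally. Rgs12 kept within 0.11 to 0.14 and Rgs14 within 0.17 to 0.25 on the log2 scale, Rgs2 within 0.13 to 0.26 and Rgs8 within 0.23 to 0.47. Rgs4 ran from 0.02 to 0.14, Rgs5 from -0.38 to -0.03 and Rgs16 from 0.00 to 0.30. For the 4 genes whose groups did not overlap, a higher estimate in each of the 6 fits follows from that separation and adds no support. Their adjusted p values in these fits were between 0.148 and 0.698 (limma). With replicate number as a block, 1.06% of tested genes and none of the 10 were called.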

How the data were processed

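Total RNA of P7 cortices (3 wildtype, 3 labelled Zmiz1-KO) was sequenced. The authors aligned reads to mm10 with STAR and normalized counts with DESeq2 in Illumina BaseSpace, and deposited 1 normalized signal value per gene and library, called normalized counts here. Tool versions and annotation were not given in the sources used here. A single read was worth 1.83 to 2.11 units, differing slightly between genes, so whole reads were not recovered and no count test was run. Values divided by these units gave an estimated 15494888 to 17858395 counted reads per library, which with 3 libraries per group sets the precision. Read estimates cover counting error only.

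Genes reaching 10 in 3 or more libraries (15800 of 24972) were compared as log2(value + 1) with limma (version 3.58.1, R version 4.3.3; intensity trend, robust), two-sided, with Benjamini-Hochberg adjustment over all tested genes and a threshold of 0.05. The scale understates changes of low genes. Intervals are per gene and unadjusted. The procedure was tested on simulated data. The RGS genes and all lists were chosen with earlier results of these data known. Named are the 10 RGS genes, label checks, called genes of each list, the 3 largest non-overlapping changes per pathway list, R7 partners and RGS neighbors. Rgs9, the remaining RGS-named genes and single markers were added after their values were seen. Alternatives were limma-voom, other pseudocounts, scalings and filters, no robust estimation, a threshold of 0.1, Xist as a covariate, a replicate block, and leaving out single libraries.

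Exonic lengths, coordinates and exon overlap are from GENCODE M21 (GRCm38), and 250-base sequences before start sites from RefSeq. Figures used matplotlib (version 3.10.9).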

Additional observations from a re-analysis of the deposited data

How the results depend on the processing

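Of 160 combinations of an RGS gene with an alternative, 158 kept the direction and the side of the threshold. The exceptions were Rgs5, which passed without wildtype replicate 1 (log2 fold change -0.38), and Rgs16, which ran from -0.0004 to 0.2980 with a library left out and reached the former without KO-labelled replicate 3. The cause was not tested. The number of RGS genes called was 0 with all alternatives and 0 to 1 with a library left out, and that of other RGS-named genes 0 throughout. For the G-protein pathway it was 1, with 0 without robust estimation, 2 with Xist as a covariate (Gng7 added) and 0 to 1 with a library left out. Over all tested genes 65 were called, 17 without robust estimation, 106 at an adjusted p of 0.1 and 12 to 151 with a library left out (12, 17 and 151 without KO-labelled replicates 3, 1 and 2, and 30 without wildtype replicate 1). With the replicate block 168 genes were called and none of the 10, the lowest limma adjusted p being 0.0926 for Rgs8. Deviations of same-numbered libraries correlated at -0.113 to -0.00509, and none of the pairs correlated best with its own number, so the numbers were not taken to pair animals. Median-ratio scaling left all values as they were. Other filters, no robust estimation and the replicate block also left the 10 estimates unchanged, so their direction could not change there. An adjusted p over the threshold does not show that a gene did not differ.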

Other observations

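The spread between libraries was unequal in the groups for several RGS genes. The coefficient of variation in wildtype and in KO-labelled libraries was 9.80% and 3.91% for Rgs2, 9.21% and 3.08% for Rgs4, 24.8% and 6.84% for Rgs5, and 16.6% and 5.97% for Rgs8, while Rgs16 went the other way with 12.8% and 22.8%. Over the 6699 genes with a mean of at least 1000 normalized counts the medians were 3.76% and 3.44%. Differences in spread were not tested. Some RGS genes share a stretch of chromosome 1, and differences between these neighbors were not tested. Rgs8 and Rgs16 had log2 fold changes of 0.37 and 0.18, Rgs4 and Rgs5 of 0.06 and -0.15, and Rgs2 and Rgs13 of 0.21 and -0.87. The per-gene interval of Rgs16 held the estimate of Rgs8, that of Rgs5 held the estimate of Rgs4, and Rgs13 rests on few reads. None of these genes was called with all 6 libraries.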
